A study of Homo sapiens with 4 samples.

Results

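The transcripts of the human mitochondrial genome were measured in HaCaT cells, an immortalized line of human epidermal keratinocytes, after knockdown of ALKBH5. The members are all 37 rows of the count tables whose gene name starts with MT-, out of 58735 rows in all: 13 mRNAs, 2 ribosomal RNAs (rRNAs) and 22 transfer RNAs (tRNAs). The rule uses gene names only and no measured value. HaCaT cells in six-well plates received 200 pmol of a control siRNA (siControl) or of an siRNA against ALKBH5 (siALKBH5) by lipid transfection. Each group held 2 libraries, all from the same cell line, and both groups were transfected. ALKBH5 is an enzyme that removes the methyl group of N6-methyladenosine (m6A) from RNA, and the comparison asks which transcripts changed when it was reduced. RNA was selected with poly-T beads, so each level below is that of RNA reaching the library after this selection. Whether each counted RNA carried a poly-A tail was not measured. Nothing in the labels says whether the replicates were separate cultures.

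Human mitochondria keep a small circular genome that is transcribed from both strands into long precursor RNAs. The heavy strand precursor carries both rRNAs, most mRNAs and most tRNAs, and the light strand precursor carries MT-ND6 and a few tRNAs. The tRNAs lie between many of the other genes, and enzymes that cut at their ends release the mRNAs and rRNAs. A poly-A tail is then added to most mRNAs, and in several it also completes the stop codon. The mRNAs encode core subunits of respiratory complexes I, III and IV and of the ATP synthase, and the other subunits, like all proteins that copy, cut and translate mitochondrial RNA, come from nuclear genes. Keratinocytes, like other cells, thus depend on both genomes for these complexes.

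The libraries held 16017502 to 18837807 counts on genes, and trimmed-mean (TMM) scaling factors lay within 0.992 and 1.01. Counts on ALKBH5 itself were 1512 and 1576 with the control siRNA and 956 and 816 with the siRNA against it, a log2 fold change of -0.85 ± 0.053 (SE, adjusted p = 6.45e-15 in edgeR's quasi-likelihood test), so it was reduced to 55.5% of its siControl level and not abolished. All 8 keratinocyte markers were expressed (3 lower and 5 higher in siALKBH5), with summed levels of 17839 to 18267 CPM (counts scaled to a fixed library size, here TMM-scaled) in siControl and 23893 to 23975 in siALKBH5. The fibroblast list summed to 21.9 to 22.8 CPM in siControl and 18.7 to 19.1 in siALKBH5, with COL1A2 and PDGFRA at 0 in every library and DCN at 52 and 71 against 24 and 29 counts. The leukocyte list summed to 2.30 and 3.06 CPM in siControl and 4.23 and 3.83 CPM in siALKBH5, with PTPRC at 0 to 2 counts and its 1 tested gene, CD14, higher (log2 fold change 0.64). The endothelial list summed to 32.5 CPM in both siControl libraries and 35.0 and 35.5 CPM in siALKBH5, with PECAM1 at 0 or 1 count, CDH5 lower (-0.69) and VWF higher (0.51). The melanocyte list lay between 2.72 and 3.89 CPM with TYR at 0. Their part in the results was not tested. In a culture, fewer cells of a kind and less RNA per cell cannot be told apart.

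The mitochondrial share of the counts was lower after ALKBH5 knockdown, and the difference lay in the rRNA rows, while the mRNA share overlapped between the groups. Of all counts, the MT- rows held 10.22% and 10.20% in siControl and 9.63% and 9.64% in siALKBH5. The group means were 10.21% ± 0.0111 and 9.64% ± 0.00541 (SD, n = 2 each), a difference of -0.57 percentage points. The spread between replicates was thus far smaller than the difference, although an exact permutation test of 2 against 2 libraries cannot give less than the p = 0.333 found here (two-sided). Wilson 95% intervals of the single libraries were narrow, for example 10.21% to 10.24% for siControl replicate 1 and 9.62% to 9.65% for siALKBH5 replicate 1, and cover counting error only.

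The 2 rRNA rows took 3.71% and 3.73% of counts in siControl and 3.13% and 3.15% in siALKBH5. The 13 mRNA rows took 6.42% and 6.38% in siControl and 6.41% and 6.40% in siALKBH5, so the libraries of the groups overlapped (exact permutation p = 1). The 22 tRNA rows took 0.0922% and 0.0904% in siControl and 0.0909% and 0.0905% in siALKBH5, which overlapped too. The ratio of rRNA to mRNA counts, which needs no scaling between libraries, was 0.577 and 0.584 in siControl and 0.488 and 0.492 in siALKBH5, a difference of -0.24 on the log2 scale. On the TMM-scaled CPM, the sums differed by -0.22 (log2) for the rRNAs, 0.023 for the mRNAs and 0.013 for the tRNAs.

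Of the 37 members, 25 passed the filter on low counts, and the 12 that did not were all tRNAs with 0 to 13 counts per library. At an adjusted p under 0.05, 8 of the 25 were lower in siALKBH5 (17.3% of all 15075 genes tested were lower) and 7 were higher (19.3% of all genes were higher), while 10 did not pass. None of them reached an absolute log2 fold change of 1, which 2.92% of all genes did together with the adjusted p. The median log2 fold change was -0.0064 over the 25 members and -0.0081 over all genes tested. The libraries of the groups did not overlap in CPM for 20 of the 25 members, against 66.3% of all genes. Abundant genes are called more often: 14 members had a mean of at least 10000 counts, and 6 of them were lower, 5 higher and 3 not called. Of the 180 other genes of that depth, 42.8% were lower and 41.1% higher, and in 93.3% the groups did not overlap in CPM. The median absolute log2 fold change was 0.13 for those 14 members and 0.14 for those 180 genes. The values below therefore concern the pattern among the members, which transcripts of the same genome rose, fell or stayed.

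**Figure D1:**
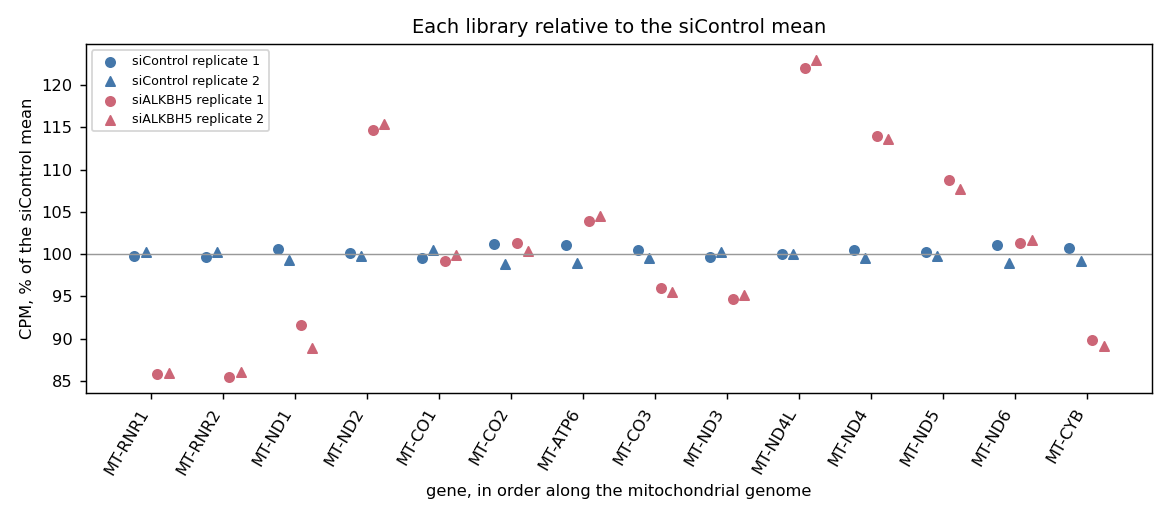
CPM of each library as a percentage of the siControl mean, for the 14 mRNAs and rRNAs with over 10000 counts in every library, in order along the mitochondrial genome. The siALKBH5 libraries (red) sit near 86% for MT-RNR1 and MT-RNR2, near 90% for MT-ND1 and MT-CYB and at 108% to 123% for MT-ND2, MT-ND4L, MT-ND4 and MT-ND5, while siControl libraries (blue) stay between 98.8% and 101%.

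Both rRNAs fell, by nearly the same proportion. MT-RNR2 (16S), the RNA of the large subunit of the mitochondrial ribosome, was the most abundant member and had 34653 and 34849 CPM in siControl and 29683 and 29928 CPM in siALKBH5. Its groups lay well apart, and it fell to 85.8% of its siControl mean (log2 fold change -0.22 ± 0.0098 SE, adjusted p = 7.47e-19, edgeR). MT-RNR1 (12S), the RNA of the small subunit, had 2198 and 2210 CPM in siControl and 1891 and 1895 CPM in siALKBH5. It fell to 85.9% (log2 fold change -0.22 ± 0.016 SE, adjusted p = 6.71e-13, edgeR). The level of MT-RNR1 relative to MT-RNR2 per length was 0.104 in each siControl library and 0.104 and 0.103 after knockdown, so their proportion did not separate the groups. rRNAs carry at most short A tails, so only part of them is bound by poly-T beads, and a change of the rRNA and a change of its tails cannot be told apart here. Cytoplasmic rRNA was not examined.

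The 7 mRNAs of complex I, the NADH dehydrogenase that feeds electrons into the chain, moved in opposite directions: 4 rose, 2 fell and 1 did not pass the test. MT-ND4L, which encodes a small membrane subunit, had 1520 CPM in each siControl library and 1855 and 1870 CPM in siALKBH5. It rose by the largest fold of the 13 mRNAs (log2 fold change 0.29 ± 0.017 SE, adjusted p = 1.43e-15, edgeR). MT-ND4, a large proton-pumping subunit read from the same mature RNA as MT-ND4L, had 6750 and 6683 CPM in siControl and 7656 and 7631 CPM in siALKBH5. It rose too, to 114% of siControl (0.19 ± 0.013, adjusted p = 9.84e-14, edgeR).

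MT-ND2, another membrane subunit, had 1311 and 1306 CPM in siControl and 1501 and 1511 CPM in siALKBH5 and rose to 115% (0.20 ± 0.018, adjusted p = 3.73e-11, edgeR). MT-ND5, the largest of these subunits, had 2148 and 2140 CPM in siControl and 2332 and 2310 CPM in siALKBH5 and rose to 108% (0.11 ± 0.016, adjusted p = 7.21e-07). In both genes the siALKBH5 libraries were above the siControl libraries by many times the gap between replicates. MT-ND1, the subunit encoded next to the rRNAs, had 913 and 901 CPM in siControl and 831 and 806 CPM in siALKBH5. It fell to 90.3% (-0.15 ± 0.021, adjusted p = 8.75e-07, edgeR). MT-ND3 had 1503 and 1512 CPM in siControl and 1428 and 1435 CPM in siALKBH5, a smaller fall to 94.9% (-0.075 ± 0.018, adjusted p = 0.00104, edgeR). MT-ND6, the only mRNA of the light strand, had 685 and 670 CPM in siControl and 686 and 688 CPM in siALKBH5 and did not pass the test (0.022 ± 0.022, adjusted p = 0.479).

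MT-CYB encodes cytochrome b, the single mitochondrial subunit of complex III, which passes electrons to cytochrome c. It had 3433 and 3380 CPM in siControl and 3062 and 3036 CPM in siALKBH5. The groups did not overlap, and the mRNA fell to 89.5% (-0.16 ± 0.015, adjusted p = 2.26e-10, edgeR), a fall of the same order as that of MT-ND1.

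The 3 mRNAs of complex IV, the cytochrome c oxidase that reduces oxygen, changed little. MT-CO1, the catalytic subunit, had 22247 and 22450 CPM in siControl and 22172 and 22328 CPM in siALKBH5, and MT-CO2, which receives electrons from cytochrome c, had 13480 and 13163 CPM and 13503 and 13372 CPM. In both genes the groups overlapped, and neither passed the test, with log2 fold changes of -0.0064 ± 0.011 (adjusted p = 0.683) and 0.013 ± 0.012 (adjusted p = 0.460). With the total count of each library in place of TMM scaling, MT-CO1 passed as lower at -0.029 (adjusted p = 0.0279). MT-CO3 had 6477 and 6415 CPM in siControl and 6186 and 6160 CPM in siALKBH5 and fell to 95.8% (-0.062 ± 0.013, adjusted p = 0.000301, edgeR).

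The ATP synthase is represented by MT-ATP6, which encodes the subunit that forms the proton channel, and by MT-ATP8, a short subunit read from the same RNA. MT-ATP6 had 3366 and 3296 CPM in siControl and 3463 and 3480 CPM in siALKBH5, a rise to 104% (0.060 ± 0.015, adjusted p = 0.00224, edgeR) that was no longer past the threshold after scaling to the mitochondrial mRNAs (adjusted p = 0.0637). MT-ATP8 counts were 51 and 66 against 58 and 51, siControl first, and it did not pass (-0.14 ± 0.23, adjusted p = 0.676). At about 50 counts a change of the size seen in the other mRNAs was not detectable for MT-ATP8.

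Scaling to the sum of the 13 mitochondrial mRNAs gives each value relative to the other mRNAs and lowers every log2 fold change by 0.023, so larger changes keep their direction by construction. On this scale 5 of the 13 mRNAs were lower (19.3% of all genes were lower) and 4 higher (17.3% of all genes were higher). The higher ones were MT-ND4L (0.27), MT-ND2 (0.18), MT-ND4 (0.16) and MT-ND5 (0.092), and the lower ones were MT-CYB (-0.18), MT-ND1 (-0.17), MT-ND3 (-0.098), MT-CO3 (-0.085) and MT-CO1 (-0.029), all as log2 fold changes. Both rRNAs were at -0.24. Of the mRNAs, MT-CO1 and MT-ATP6 changed sides of the threshold.

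Ratios between neighbouring genes show where along the heavy strand the proportions shifted, again per length and within each library. MT-ND1 stood at 0.759 and 0.751 of MT-ND2 in siControl and at 0.603 and 0.582 in siALKBH5, a log2 difference of -0.35. MT-ND3 stood at 0.849 and 0.854 of MT-ND4L in siControl and at 0.661 and 0.659 in siALKBH5, a log2 difference of -0.37. MT-ND5 stood at 0.394 and 0.399 of MT-CYB in siControl and at 0.479 in both siALKBH5 libraries, a log2 difference of 0.27. The groups lay apart at these junctions in every library. They also lay apart, by log2 difference, at MT-ND2 to MT-CO1 (0.21), MT-ATP6 to MT-CO3 (0.12) and MT-ND4L to MT-ND4 (0.11). Smaller differences without overlap were those of MT-RNR2 to MT-ND1 (-0.074), MT-ND4 to MT-ND5 (0.072) and MT-CO2 to MT-ATP6 (-0.047). MT-CO1 to MT-CO2 (0.732 and 0.757 against 0.728 and 0.741) and MT-CO3 to MT-ND3 (1.90 and 1.87 against 1.91 and 1.89) overlapped. The ratios of MT-RNR1 to MT-RNR2 overlapped too. Falling and rising genes alternate along the heavy strand. The rRNAs and MT-ND1 fell, MT-ND2 rose, MT-CO1, MT-CO2 and MT-ATP8 did not pass, and MT-ATP6 rose on TMM scaling. Further along, MT-CO3 and MT-ND3 fell, MT-ND4L, MT-ND4 and MT-ND5 rose, and MT-CYB fell.

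Counts per length span a wide range although most of these genes are copied into the same precursor. They stand for levels only as far as reads were assigned to their gene of origin. MT-ATP8 and MT-ATP6 are read from the same RNA, so their values cannot both stand for its level. Stretches of 50 bases that also occur in nuclear copies make up 49.5% of MT-CO1 windows and 0% of MT-ND3 windows. The part of read assignment in the order was not tested. In siControl, MT-RNR2 stood highest at 22290 ± 88.8 CPM per kb (SD, n = 2), followed by MT-CO2 at 19476 ± 327, MT-CO1 at 14493 ± 92.8 and MT-CO3 at 8222 ± 55.3. MT-ND4L (5118 ± 1.75), MT-ATP6 (4892 ± 73.4), MT-ND4 (4874 ± 34.2) and MT-ND3 (4357 ± 17.5) came next, then MT-CYB (2985 ± 32.8) and MT-RNR1 (2310 ± 8.52). MT-ND6 (1290 ± 19.8), MT-ND2 (1256 ± 2.89), MT-ND5 (1183 ± 3.46), MT-ND1 (948 ± 8.96) and MT-ATP8 (16.5 ± 1.72) were lowest. Only MT-ATP6 and MT-ND4 had overlapping libraries among neighbours in this order. The mRNAs of complex IV were thus the most abundant per length and those of complex I spread from MT-ND4L, next after them, down to MT-ND1, and the knockdown changed no level by as much as the distance between the high and the low mRNAs.

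**Figure D2:**
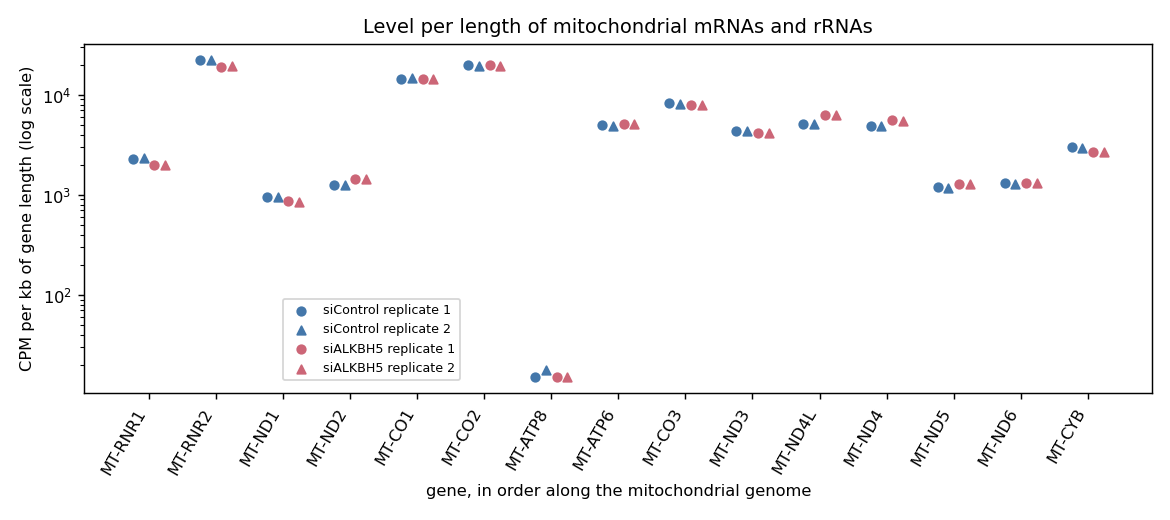
CPM per kb of gene length (log axis) for the 13 mRNAs and 2 rRNAs in each of the 4 libraries, in order along the mitochondrial genome. MT-RNR2, MT-CO2 and MT-CO1 are the 3 highest in every library and MT-ATP8 is by far the lowest, and the differences between siControl (blue) and siALKBH5 (red) are small on this scale.

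Some of the members overlap on the genome, which bears on how their reads can be assigned. The shared stretches are shown in capitals below (heavy strand genes, GRCh38 with GENCODE 29 coordinates), because they join mRNAs that were counted as separate genes: MT-ND4L and MT-ND4 share 7 bases, MT-ATP8 and MT-ATP6 share 46, and MT-ATP6 and MT-CO3 share 1.
MT-ND4L/MT-ND4, chrM:10748-10778: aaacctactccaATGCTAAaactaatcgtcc
MT-ATP8/MT-ATP6, chrM:8520-8579: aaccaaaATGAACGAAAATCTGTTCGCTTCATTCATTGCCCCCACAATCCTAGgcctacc
MT-ATP6/MT-CO3, chrM:9195-9219: cgacaacacataAtgacccaccaat
The first capitals of the first 2 stretches are the start codon of the downstream gene, and the last are the stop codon of the upstream gene. Although MT-ND4L and MT-ND4 sit on 1 mature RNA, MT-ND4L rose more: its level per length was 1.05 and 1.06 times that of MT-ND4 in siControl and 1.12 and 1.14 times in siALKBH5. MT-ATP8 stood at 0.0031 and 0.0037 of MT-ATP6 per length in siControl and at 0.0029 in both siALKBH5 libraries, although these too share an RNA. How reads over 2 genes were counted is not given in the sources used here, so values of genes in these pairs are uncertain as separate measures.

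The ends of the mRNAs fall into 2 kinds. In 6 of them the gene ends in T or TA and the tail completes the stop codon, and in 7 the stop codon is encoded whole. The last 18 bases of the 3 mRNAs that fell most and the 3 that rose most are given with the encoded part of the stop codon in capitals, read from the GENCODE 29 transcripts (GRCh38).
MT-CYB, lower: aaatactcaaatgggccT
MT-ND1, lower: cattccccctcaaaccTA
MT-ND3, lower: gattagactgaaccgaaT
MT-ND4L, higher: aacctactccaatgcTAA
MT-ND2, higher: ttatactaataatcttaT
MT-ND4, higher: ttaccgggttttcctctT
All 4 mRNAs that fell (MT-ND1, MT-CO3, MT-ND3 and MT-CYB) have the incomplete kind, but so do MT-ND2 and MT-ND4, which rose. The 7 mRNAs with a whole stop codon include 3 that rose (MT-ATP6, MT-ND4L and MT-ND5) and 4 that did not pass (MT-CO1, MT-CO2, MT-ATP8 and MT-ND6). With 13 genes this is a description only.

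ALKBH5 acts on m6A, which in nuclear-encoded mRNA lies mostly in a short consensus of which GGACT is the most typical form, so these letters were counted on the sense strand of each mRNA and rRNA. MT-ND4 and MT-ND5 held 3 matches each, MT-RNR2, MT-CO1, MT-CO2, MT-ATP6, MT-CO3 and MT-CYB held 1 each, and the other 7 genes held 0. The matches in MT-ND4 and MT-ND5, the genes with most of them, are shown with the motif in capitals and the position of the motif on GRCh38.
MT-ND4, chrM:11390-11394: ctctttacGGACTccacttat
MT-ND4, chrM:11798-11802: tctctcaaGGACTtcaaactc
MT-ND4, chrM:11948-11952: tacttacaGGACTcaacatac
MT-ND5, chrM:13267-13271: gtcaactaGGACTcataatag
MT-ND5, chrM:13417-13421: aaataggaGGACTactcaaaa
MT-ND5, chrM:13825-13829: ctttcctaGGACTtctaacag
The letters are common. The background was the longest coding transcript of each gene outside the MT- rows, where at least as long. Of these, 69.2% hold 1 or more matches in their last 1378 bases (the length of MT-ND4). In their last 1812 bases (the length of MT-ND5), 78.2% do. How many hold 3 or more was not counted. Genes with and without a GGACT match occurred among both the higher and the lower ones. MT-ND2 and MT-ND4L rose with 0 matches, and MT-RNR1, MT-ND1 and MT-ND3 fell with 0. The paper gives the wider consensus RRACH (R is G or A, H is A, C or U). Its other forms were not counted, so 0 matches does not mean that a gene lacks the consensus. A match is a description of the letters, and m6A was not measured in these libraries.

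The tRNA rows were dominated by 3 genes of the light strand. MT-TN, MT-TC and MT-TP, which encode the tRNAs for asparagine, cysteine and proline, together held 97.5% to 98.0% of all tRNA counts in each library, and the other 19 genes had 0 to 136 counts. The sequences of the 4 tRNA genes that passed the test are given as RNA sense with T for U, and the single capital marks the base that MT-TC and MT-TY share.
MT-TN, chrM:5657-5729: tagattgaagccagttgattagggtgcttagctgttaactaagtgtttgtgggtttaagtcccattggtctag
MT-TC, chrM:5761-5826: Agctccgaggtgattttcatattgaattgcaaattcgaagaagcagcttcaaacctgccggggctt
MT-TY, chrM:5826-5891: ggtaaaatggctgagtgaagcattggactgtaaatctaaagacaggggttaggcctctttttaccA
MT-TP, chrM:15956-16023: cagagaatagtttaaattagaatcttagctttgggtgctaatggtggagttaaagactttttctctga
MT-TN had 515 and 516 CPM in siControl and 566 and 560 CPM in siALKBH5 and rose (0.13 ± 0.023, adjusted p = 4.03e-05, edgeR). MT-TC, which lies close by on the same strand, had 304 and 287 CPM in siControl and 250 and 240 CPM in siALKBH5 and fell (-0.27 ± 0.031, adjusted p = 1.88e-08, edgeR). Neighbours of the same cluster thus moved in opposite directions: MT-TC stood at 0.652 and 0.614 of MT-TN per length in siControl and at 0.488 and 0.473 in siALKBH5.

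MT-TP had 77.0 and 72.9 CPM in siControl and 83.1 and 95.2 CPM in siALKBH5 and rose (0.25 ± 0.053, adjusted p = 0.000352, edgeR). Without siALKBH5 replicate 2, its higher library, the log2 fold change of MT-TP was 0.15 (adjusted p = 0.0428, edgeR), and without siALKBH5 replicate 1 it was 0.35. For MT-TY, the tRNA for tyrosine, siControl gave 102 and 136 counts and siALKBH5 gave 90 and 84, a fall (-0.49 ± 0.17, adjusted p = 0.0215). This call was lost without siControl replicate 2 (adjusted p = 0.228), without siALKBH5 replicate 1 (0.0992) and in DESeq2 (0.18). Of the heavy strand tRNAs, 6 of 14 were tested and 0 passed. MT-TT had the largest difference of these, 47 and 53 against 36 and 32 counts (-0.60 ± 0.27, adjusted p = 0.0799), and MT-TG, MT-TL1, MT-TV, MT-TR and MT-TH had 16 to 60 counts and log2 fold changes of -0.45 to 0.25. MT-TS1 had 0, 2, 13 and 1 counts and was not tested, and the other 11 untested tRNAs (MT-TF, MT-TI, MT-TQ, MT-TM, MT-TW, MT-TA, MT-TD, MT-TK, MT-TS2, MT-TL2 and MT-TE) had 0 to 13 counts. Fragments were size-selected well above the length of a tRNA, so a read on a tRNA row cannot be told apart from a read of a longer RNA that includes the tRNA gene. Whether reads were counted by strand is not given in the sources used here, so for these light strand genes and for MT-ND6 sense and antisense RNA cannot be told apart.

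**Figure D3:**
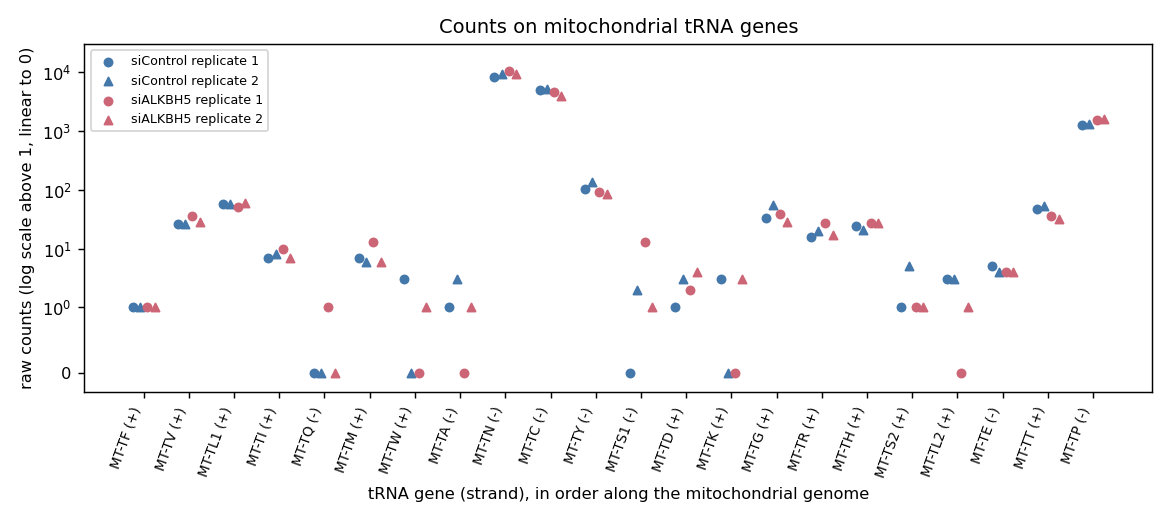
Raw counts on the 22 mitochondrial tRNA genes in each library (log scale above 1), in order along the genome with the strand in brackets (- is the light strand). MT-TN, MT-TC and MT-TP stand above 1000 counts in every library and all others below 140.

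Nuclear copies of mitochondrial genes, pseudogenes that share long stretches of sequence with the members, can take or give reads. The tables hold 407 such rows, of which 5 were tested. MTND2P28, a copy of MT-ND2 on chromosome 1 with 98.4% identity, rose from 1392 and 1669 counts to 1896 and 1968 (0.30 ± 0.054, adjusted p = 3.37e-05, edgeR), and MT-ND2 rose as well, but DESeq2 called 0 of the copies. MTATP6P1, with 98.5% identity to MT-ATP6, had 5160 and 6147 counts against 5931 and 5278 and did not pass (-0.053 ± 0.029, adjusted p = 0.161). MTCO1P12, with 98.6% identity to MT-CO1, had 609 and 802 counts against 610 and 743 and did not pass either (adjusted p = 0.462), nor did MTRNR2L12 (10 to 15 counts) and MTND4P12 (7 to 11 counts). Of the windows of 50 bases in MT-CO1, MT-ATP6 and MT-ND2, 49.5%, 46.7% and 43.6% occurred unchanged in a nuclear copy, against 3.54% for MT-ND4, 1.19% for MT-CYB and 0% for MT-ND3, MT-ND4L and MT-RNR1. The genes with no such window include 1 that rose (MT-ND4L) and 2 that fell (MT-ND3 and MT-RNR1). The shares depend on the window. With windows of 100 bases they were 27.9% for MT-CO1, 11.9% for MT-ATP6 and 26.1% for MT-ND2, and 0% for MT-ND4 and MT-CYB. MTND2P28 had 1392 to 1968 counts beside 21117 to 28037 on MT-ND2, and MTATP6P1 had 5160 to 6147 beside 54243 to 64685 on MT-ATP6. The counts on MTATP6P1 were thus larger than the difference between the groups in MT-ATP6, whose level stood at 104% of siControl, and their part in it was not tested.

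Among the nuclear partners of the mitochondrial mRNAs, more rose than fell. The list held 73 nuclear genes for subunits of complexes I, III and IV and the ATP synthase, all tested. Of these, 30 were higher and 5 lower (41.1% and 6.85%, against 19.3% and 17.3% of all genes). Their median log2 fold change was 0.12, against -0.0081 for all genes. These shares were not matched for depth, and abundant genes are called more often. Of the 180 genes other than MT- with a mean of at least 10000 counts, 41.1% were higher and 42.8% lower. Those 180 genes are not a matched set either, since the listed subunits were not chosen by depth. In complex I, 14 of 37 rose, among them NDUFS8 (0.42 ± 0.041), NDUFB8 (0.39 ± 0.12) and NDUFS7 (0.37 ± 0.082), and only NDUFA1 fell (-0.19 ± 0.044). NDUFS7 and NDUFS8 are core subunits of the arm that takes electrons from NADH, and NDUFB8 and NDUFA1 are accessory subunits. In complex III, 5 of 9 rose, led by UQCRQ (0.35 ± 0.043), UQCRC1 (0.32 ± 0.029), CYC1 (0.23 ± 0.029; cytochrome c1) and UQCRFS1 (0.18 ± 0.033; the iron-sulphur protein), while UQCRB (-0.20 ± 0.033) and UQCRH (-0.10 ± 0.033) fell, as did their mitochondrial partner MT-CYB.

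In complex IV, 5 of 11 nuclear genes rose and 0 fell at an adjusted p under 0.05 in edgeR, led by NDUFA4 (0.25 ± 0.031), COX7B (0.25 ± 0.034), COX7A2 (0.23 ± 0.036) and COX8A (0.19 ± 0.037), beside MT-CO1 and MT-CO2, which did not pass. In the ATP synthase list, which includes the inhibitor ATP5IF1, 6 of 16 rose, led by ATP5MC1 (0.59 ± 0.063; a gene for the rotating c ring), ATP5F1B (0.28 ± 0.019) and ATP5F1A (0.25 ± 0.020; these 2 form the catalytic head) and ATP5MC3 (0.15 ± 0.028), while ATP5F1E (-0.18 ± 0.034) and ATP5PB (-0.080 ± 0.029) fell. All are log2 fold changes with SE from edgeR. Many nuclear genes of these lists did not pass the test. In complexes I, III and IV these were 22 of 37, 2 of 9 and 6 of 11. In the ATP synthase list 8 of 16 did not pass.

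**Figure D4:**
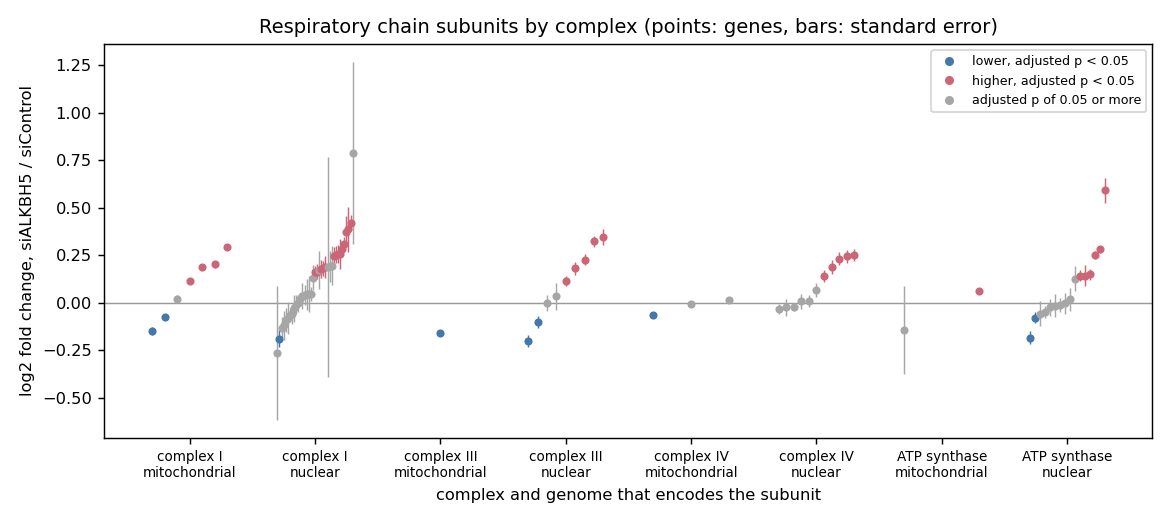
Log2 fold changes (siALKBH5 over siControl, bars are SE) of mitochondrially and nuclear-encoded subunits by complex, coloured by the edgeR call. Calls above 0 outnumber calls below 0 among the nuclear subunits of each complex, and the mitochondrial subunits of complex I lie on both sides of 0.

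Of 93 listed nuclear-encoded factors of mitochondrial gene expression, 92 were tested, with 14 lower, 15 higher and a median log2 fold change of 0.0038. The lists also hold genes of replication and regulators of nuclear genes, so not all act on mitochondrial RNA. These are 15.2% and 16.3% of the list, near or below the 17.3% and 19.3% of all genes, so the genes named next describe members of a list that was called no more often than the rest. Among 17 genes of transcription and replication, 4 fell: MTERF1 (-0.45 ± 0.14) and MTERF3 (-0.41 ± 0.15), members of the MTERF family of mitochondrial nucleic acid-binding proteins, the topoisomerase TOP1MT (-0.30 ± 0.075) and TFAM (-0.27 ± 0.061), which packages the genome and opens its promoters. In the same list RNASEH1 (0.30 ± 0.12), POLG (0.24 ± 0.052; the replicative polymerase), LONP1 (0.23 ± 0.069; a protease) and MGME1 (0.17 ± 0.056; an exonuclease) rose. The RNA polymerase POLRMT (0.094 ± 0.071, adjusted p = 0.327), its cofactors TFB2M (-0.13 ± 0.10, adjusted p = 0.364) and TEFM (-0.28 ± 0.16, adjusted p = 0.179) and the helicase TWNK (-0.13 ± 0.13, adjusted p = 0.505) did not pass.

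Of 23 genes of RNA processing and stability, 5 fell and 4 rose. RNase P cuts precursors at the 5′ end of tRNAs, and its 3 subunits split: KIAA0391 (-0.45 ± 0.15), the nuclease, and TRMT10C (-0.39 ± 0.088) fell and HSD17B10 (0.26 ± 0.068) rose. ELAC2, which cuts at the 3′ end of tRNAs, rose (0.16 ± 0.045), and TRNT1 (-0.44 ± 0.18), which adds CCA to tRNAs, and ANGEL2 (-0.26 ± 0.090) fell. SLIRP (0.23 ± 0.065), the partner of LRPPRC in holding mitochondrial mRNAs stable, rose, as did TBRG4 (0.22 ± 0.037), while LRPPRC itself (-0.069 ± 0.034, adjusted p = 0.117) and the poly-A polymerase MTPAP (-0.0068 ± 0.10, adjusted p = 0.969) did not pass. Of 25 genes of RNA modification, 2 fell (PUS1, -0.42 ± 0.14, and QTRT1, -0.34 ± 0.13) and 2 rose (RPUSD3, 0.32 ± 0.099, and TRUB2, 0.14 ± 0.044), and ALKBH1, a demethylase of the same family as ALKBH5 that acts on mitochondrial tRNA, did not pass (-0.079 ± 0.12, adjusted p = 0.644).

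Among the 20 genes that charge mitochondrial tRNAs with amino acids, 5 rose and 0 fell at an adjusted p under 0.05 in edgeR, or 25.0% higher beside 19.3% of all genes. Among them were AARS2 (0.35 ± 0.10), VARS2 (0.31 ± 0.069) and TARS2 (0.27 ± 0.059), the enzymes for alanine, valine and threonine. Of 7 tested nuclear regulators of mitochondrial genes, GABPA (-0.24 ± 0.080), ESRRA (-0.22 ± 0.031) and YY1 (-0.14 ± 0.034), all transcription factors, fell, and 0 rose at an adjusted p under 0.05 in edgeR (42.9% lower, beside 17.3% of all genes). With DESeq2 in place of edgeR, 5 of the 92 factor genes were lower and 6 higher, so the numbers for the factor lists depend on the tool.

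**Figure D5:**
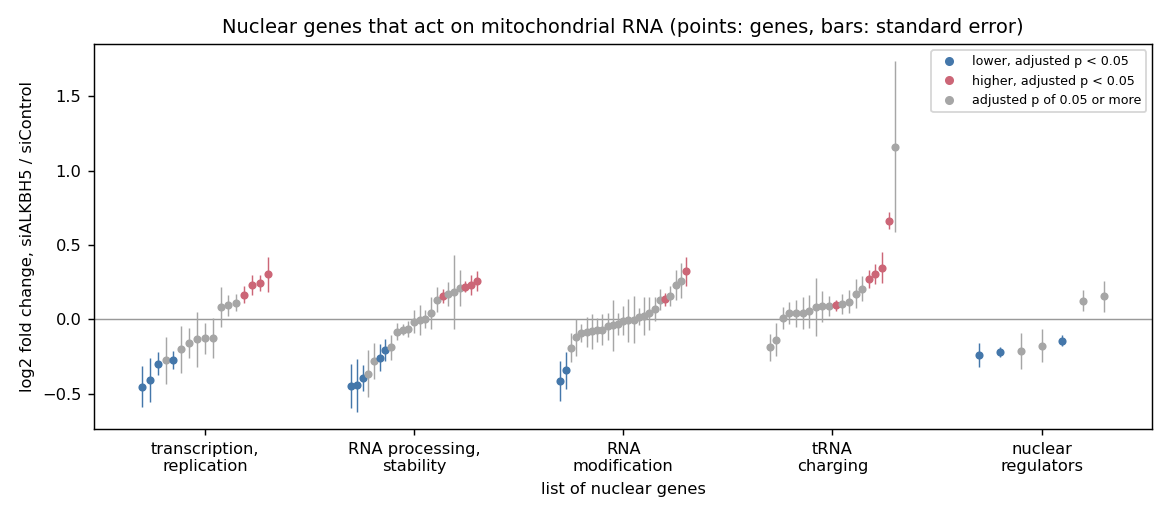
Log2 fold changes (siALKBH5 over siControl, bars are SE) of nuclear-encoded factors of mitochondrial gene expression, by list, coloured by the edgeR call. Calls lie on both sides of 0 for transcription, processing and modification, above 0 for tRNA charging and below 0 for the regulators.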

How the data were processed

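RNA from HaCaT cells was sequenced after poly-T selection, in 2 siControl and 2 siALKBH5 libraries. The authors deposited raw counts per gene with FPKM values. The submitters' notes name CASAVA, HISAT2 2.0.5, featureCounts 1.5.0-p3, DESeq2 1.20.0 and hg38, and the counting options are not given in the sources used here. The deposited FPKM values and the authors' own fold changes and p-values were not used. All 58735 gene rows of the deposited counts were read, and groups follow the labels. Genes passing filterByExpr (15075) were scaled by TMM and tested with edgeR 4.0.16 (quasi-likelihood, all 4 libraries, Benjamini-Hochberg over all genes tested); a call is an adjusted p under 0.05. CPM use TMM-scaled library sizes. On simulated data of 15013 tested genes, edgeR called 86 of 98 genes changed by log2 1, 41 of 100 changed by 0.25, and 6 unchanged genes. Every simulated gene had the same biological coefficient of variation, close to the common 0.025 estimated here, and the libraries were independent. The simulation therefore does not cover genes that vary more, or replicates from a shared culture. Replicates were not duplicates (chi-square per degree of freedom 1.71 and 1.81). Since nothing says that they came from separate cultures, p-values measure the spread between these libraries. Shares are given with Wilson 95% intervals, and single values were compared by exact permutation tests. Named genes are every MT- row, ALKBH5, 9 factors (POLRMT, TFAM, TFB2M, TEFM, LRPPRC, SLIRP, MTPAP, TWNK and ALKBH1), up to 4 called genes per direction of each list, by size, and the 5 copies with most counts; some genes that the rule would name are not reported here. Sequences come from GENCODE 29 transcripts. The members and lists were chosen with earlier results of these data known. Alternatives were DESeq2, other scalings and filters, each library left out and a replicate block.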

Additional observations from a re-analysis of the deposited data

How the results depend on the processing

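Over 12 alternatives for the MT- genes (DESeq2, 4 other scalings, 2 other filters, the replicate block and each of the 4 libraries left out), 13 of the 15 called MT- genes kept their direction and call, the exceptions being MT-TY and MT-ATP6, and 14 kept them with each library left out. The number lower was 7 to 9 and higher 6 to 8, and 7 to 8 and 7 to 8 with a library left out; where 1 library remained in a group it was assumed to vary like the other group. With a fold limit of 1 on the absolute log2 scale it was 0 and 0, and likewise 0 for the nuclear lists and copies. Same-numbered replicates did not deviate together (correlation 0.034), so the numbers name samples only; with the replicate block 8 MT- genes were lower and 7 higher. Values that changed sign were all of genes not called. MT-ND6 did so with library size only (-0.00059) and scaled to the MT- mRNAs (-0.0014). MT-CO2 did so with library size only (-0.0096), scaled to the MT- mRNAs (-0.010) and without siControl replicate 2 (-0.0052). MT-CO1 did so with no filter (0.00049) and without siALKBH5 replicate 1 (0.00041). MT-TL1 (0.10) and MT-TR (-0.028) did so without siALKBH5 replicate 1. Without siALKBH5 replicate 2, MT-TL1 (-0.32) and MT-TR (0.45) kept their signs. MT-CO1 became lower scaled to the MT- mRNAs (-0.029), and MT-CO2 higher without siControl replicate 1 (0.033). The summed mRNA log2 fold change of 0.023 became 0.00074 with library size only and -0.0085 scaled by the plain total of the other genes; it was 0.018 to 0.027 with a library left out. The share difference was -0.58 to -0.57 points with a library left out and 0.0033 over the mRNA rows alone. With DESeq2 the factors gave 5 lower and 6 higher, the nuclear subunits 3 lower and 25 higher, and the copies 0 higher. With library size only, 1 copy was lower. With a library left out the factors gave 8 to 13 lower and 10 to 12 higher, the subunits 3 to 5 lower and 27 to 30 higher, and the copies 0 to 1 lower; the factors fell to 8 without siControl replicate 2 and 9 without siALKBH5 replicate 2, and the subunits to 3 lower without siControl replicate 2 or siALKBH5 replicate 1. The causes were not tested. Depth limits the 12 untested tRNAs and MT-ATP8.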
